A study of Oryctolagus cuniculus with 30 samples.

Results

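Late change in healed epidermis under an occlusive film was examined by setting covered wounds at day 5 (5 arrays) against covered wounds at day 3 (5 arrays), chosen by their titles, 10 of the 30 arrays of the series. All animals were female New Zealand White rabbits, and RNA came from ear epidermis. Grids of incisions, cut with blades 1 mm apart, stayed under 1 layer of Tegaderm (a clear adhesive film) up to closure of the epidermis, 2 days from the cut, and that time is called day 0. From day 0 the left ear carried 4 added layers of film (covered) and the right ear none (uncovered). The other groups used here were uncovered wounds at day 3 and at day 5 (6 arrays each), wounds at day 0 (6 arrays) and unwounded skin (2 arrays). Ammonium thiocyanate (0.5 M, 30 min) freed the epidermis from the dermis, and 400 ng of RNA was labelled for 1-colour Agilent arrays with 23369 probes of 60 bases. No label says which animal an array came from, so each p-value reflects the spread among these samples alone, which may be technical, and arrays of different groups may come from 1 animal.

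Epidermis renews itself from a dividing basal layer, whose daughter keratinocytes stop dividing, make differentiation keratins and finally fill with cross-linked protein and lipid to form the cornified barrier. After wound closure the new epidermis is thick and still carries the activated keratinocyte state of repair, and it returns stepwise to ordinary differentiation as the barrier is rebuilt. A film dressing keeps water in, so the surface stays moist while that rebuilding takes place. In RNA from a whole tissue layer, fewer cells of a type and less RNA per cell cannot be told apart. The array files describe every probe as unknown and name only the clone or contig it was made from. With no map from probes to genes at hand, no probe was tied to a gene, and the identity of the tissue could not be checked against epidermal markers. The sequences were not compared with known transcripts. Whether probes of different clones read the same transcript, or its opposite strands, was not tested. Probes are therefore described by their names, sequences and behaviour across the groups.

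The following probe sequences, printed 5′ to 3′ in lower case with no base singled out, carry the results below: probes that were bright in unwounded skin, far lower at day 0 and higher again under film at day 5 (the first 4), probes that ended above unwounded skin (the next pair), probes that appeared late under film (the next 3), probes of 2 transcripts that fell (the next 4), and probes whose course differed between covered and uncovered wounds (the last 3).
UF_Ocu_AF_103486: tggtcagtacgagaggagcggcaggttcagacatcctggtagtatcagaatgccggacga
UF_Ocu_AF_106912: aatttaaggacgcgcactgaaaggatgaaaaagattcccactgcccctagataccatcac
UF_Ocu_AF_107909: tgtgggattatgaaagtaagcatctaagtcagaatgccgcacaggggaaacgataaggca
UF_Ocu_AF_107910: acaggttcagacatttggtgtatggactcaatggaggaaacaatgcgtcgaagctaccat
UF_Ocu_AF_108414: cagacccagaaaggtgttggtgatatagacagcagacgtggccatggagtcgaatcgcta
UF_Ocu_AF_108052: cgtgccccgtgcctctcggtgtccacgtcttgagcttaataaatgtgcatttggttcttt
UF_Ocu_AF_111885: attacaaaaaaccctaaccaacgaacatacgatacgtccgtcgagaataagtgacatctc
UF_Ocu_AF_107087: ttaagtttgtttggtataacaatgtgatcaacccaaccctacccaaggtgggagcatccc
UF_Ocu_AF_109798: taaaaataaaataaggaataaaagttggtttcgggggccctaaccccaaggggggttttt
UF_Ocu_AF_111919: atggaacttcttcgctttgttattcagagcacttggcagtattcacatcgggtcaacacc
UF_Ocu_AF_111918: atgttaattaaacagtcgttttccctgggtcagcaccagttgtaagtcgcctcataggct
UF_Ocu_AF_106667: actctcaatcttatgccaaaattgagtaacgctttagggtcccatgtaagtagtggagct
UF_Ocu_AF_106666: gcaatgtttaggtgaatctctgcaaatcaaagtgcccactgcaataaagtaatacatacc
UF_Ocu_AF_111876: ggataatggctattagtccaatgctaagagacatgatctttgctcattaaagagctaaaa
UF_Ocu_AF_111877: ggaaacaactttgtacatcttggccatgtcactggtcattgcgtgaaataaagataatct
UF_Ocu_UN_119233: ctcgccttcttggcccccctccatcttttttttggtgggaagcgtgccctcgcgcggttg

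Covered day 5 replicate 1 stood apart from the other 9 covered arrays. It lay on slide 6 with an unwounded sample and was scanned on day 1 of 3 scan days, whereas the other 4 arrays of its group were scanned on day 2. It had 595 spots flagged as outliers and 311 saturated spots, against 8 to 267 and 0 to 4 on the other covered arrays. Across tested probes it correlated with the rest of its group with r from 0.92 to 0.95 and with covered day 3 with r from 0.91 to 0.95, while covered day 5 replicates 2 to 5 correlated among themselves with r from 0.97 to 0.99. The share of probes well above background was 44.3% ± 3.61 (SD, n = 5) at covered day 3 and 44.8% ± 3.53 (SD, n = 5) at covered day 5, and the difference of 0.53 percentage points was within the spread between arrays (exact permutation test, 2-sided, p = 0.83). Without replicate 1 the difference was -0.785 percentage points (exact permutation test, 2-sided, p = 0.73). The main counts are given below with and without this array, and a count given once includes it unless stated otherwise. Values of single probes are given both ways where the fold moves by over 1.5 times without it.

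Under the main scaling between arrays, probes that rose from day 3 to day 5 under film outnumbered those that fell. The excess was largest among large changes. Of 12342 probes tested, 2747 (22.3%) changed at a Benjamini-Hochberg adjusted p under 0.05 in limma, which is what "called" means here, with 1860 (15.1%) higher and 887 (7.19%) lower at day 5. At least 2-fold changes numbered 1068 higher (8.65%) and 149 lower (1.21%), and at least 4-fold changes 211 higher and 22 lower. Without covered day 5 replicate 1, 3335 probes (27.0%) were called, 2271 higher (18.4%) and 1064 lower (8.62%), with 1266 and 176 of them at least 2-fold. Of the 2747 calls, 2400 were called in the same direction without that array and none in the opposite direction.

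How the calls divided into rises and falls depended on the scaling between arrays, while rises outnumbered falls among the changes of at least 2-fold under every scaling tried. Scaled on all probes rather than on those well above background on every array, 1306 probes were higher and 1252 lower. Quantile normalization gave 1324 and 1369, and the authors' deposited values gave 1287 and 1599. With background correction by normexp 417 were higher and 271 lower. Rises and falls of at least 2-fold numbered 828 and 306, 694 and 387, 300 and 95, and 241 and 47 in that order. The median change of all tested probes was 0.12 log2 units under the scaling used here, and between -0.03 and 0.00 under the other 4, so the changes given here carry that common shift.

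Each covered array was also compared with the mean of the other day after it had been left out of the fit that chose the probes. On the 9 arrays other than covered day 5 replicate 1, 95.7% to 99.9% of the probes called higher without that array lay in the same direction on it, as did 95.5% to 100% of the probes called lower. On replicate 1 the shares were 72.5% of 2271 higher probes and 84.4% of 1064 lower probes. Slides 3 and 9 each held 1 covered day 3 and 1 covered day 5 array. Within slide 3, 95.3% of the 1922 probes called without its covered arrays changed in the called direction between its arrays, and within slide 9, 97.8% of 1339 did so. Of all tested probes, 59.8% were higher at day 5 on slide 3 and 63.8% on slide 9. Among covered arrays of scan day 2 only, 2409 probes were called, 1715 higher and 694 lower.

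**Figure D1:**
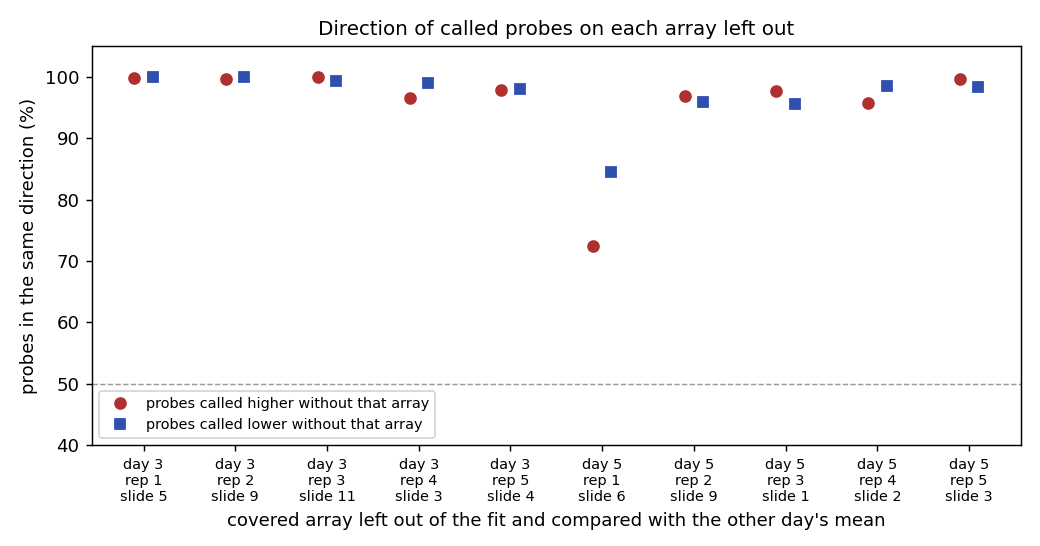
Share of probes (percent, vertical axis) that lay in the called direction on each covered array after that array had been left out of the fit, for probes called higher (circles) and lower (squares) by the remaining arrays; the dashed line marks 50%, and the axis starts at 40%. Covered day 5 replicate 1 on slide 6 gave 72.5% and 84.4%, and the other 9 arrays gave 95.5% or more. The arrays of the other day helped choose the probes, so 50% is not a chance level here.

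Direction of change went with the base composition of the probe. The probes called lower held a median of 35% G and C, against 45% for the probes called higher and for all tested probes. In the class of probes with up to 36% G and C, 6.07% were called higher and 18.5% lower, and the median change was -0.24. In the class over 56% these values were 14.6%, 0.20% and 0.32. Median changes in uncovered wounds ran the same way, from -0.31 in the lowest class to 0.64 in the highest. Covered day 5 replicate 1 lay at -1.05 in the highest class, where the other covered day 5 arrays lay between 0.21 and 0.50 and the covered day 3 arrays between -0.43 and -0.09. After levels had been centred within classes of G and C on each array, 959 of the 1860 higher and 622 of the 887 lower probes were still called, as were 207 of 211 and 22 of 22 of the probes changed at least 4-fold. The balance of all calls then turned, to 1086 higher and 1171 lower, with 651 and 209 of them at least 2-fold. The part of base composition in the other changes was not tested further.

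**Figure D2:**
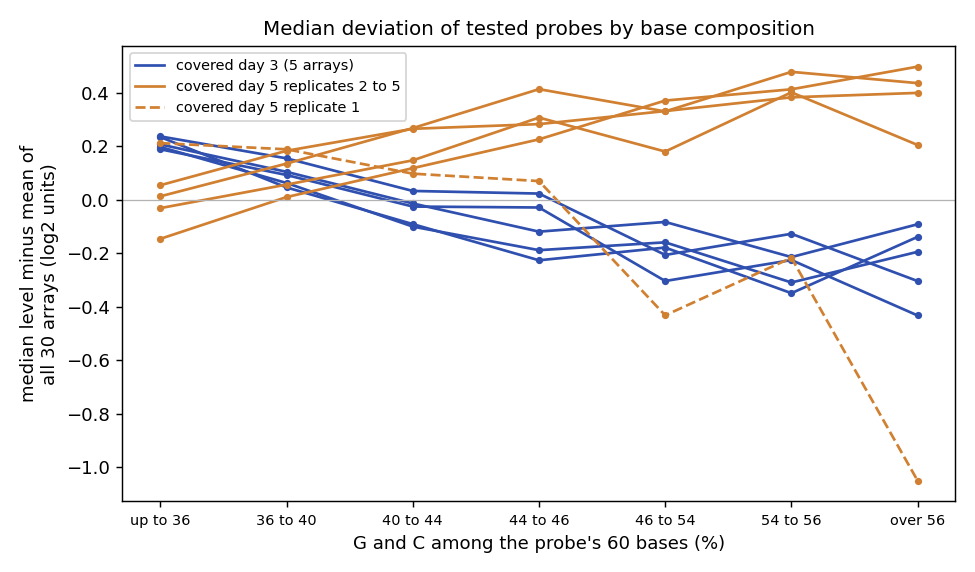
Median deviation of tested probes from their mean over all 30 arrays (log2 units, vertical axis) by the percentage of G and C in the probe (horizontal axis), with 1 line per covered array. Covered day 5 replicates 2 to 5 (solid orange) lay above covered day 3 (blue) in G- and C-rich classes and below it in the class up to 36%, and covered day 5 replicate 1 (dashed) fell to -1.05 in the class over 56%.

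The changed probes were also placed against unwounded skin and day 0. Of the 211 probes that rose at least 4-fold, 40 (19.0%) were well above background on none of the 8 arrays of unwounded skin and day 0, against 4.82% of all tested probes. A further 32 (15.2%, against 7.22%) were well above background on both unwounded arrays but not on all 6 at day 0, and 40 (19.0%, against 10.5%) on at least 1 day 0 array and neither unwounded array. The same classes held 0, 6 (27.3%) and 5 (22.7%) of the 22 probes that fell at least 4-fold. At covered day 3, 65 of the 211 rising probes lay more than 2-fold below unwounded skin and 6 more than 2-fold above it. At covered day 5, 180 of the 211 (85.3%) lay more than 2-fold above unwounded skin and 5 below. Of the 22 falling probes, 9 lay more than 2-fold above unwounded skin at day 3 and 4 at day 5, while 1 lay more than 2-fold below at day 3 and 13 at day 5. Of all tested probes 7.42% lay more than 2-fold above at day 3 and 13.5% at day 5, and 4.11% and 2.28% below. The covered values chose both lists, so these counts are a description, and unwounded skin rests on 2 arrays, 1 of them on slide 6. Over all 1860 higher probes the median distance from unwounded skin was -0.37 at day 3 and 0.71 at day 5, beside 0.09 and 0.26 for all tested probes. For the 887 lower probes it was 0.34 and -0.35. Day 0, which is 2 days after the cut, was compared with unwounded skin on arrays outside the covered groups but in the same fit (37.3% of tested probes called in either direction). Of the higher probes, 20.8% were called lower at day 0 than in unwounded skin and 14.2% higher, beside 20.2% and 17.1% of all tested probes. For the lower probes these shares were 25.3% and 15.3%. Among changes of at least 2-fold they were 21.4% and 7.96% for rises, and 38.3% and 14.1% for falls. The lists called without covered day 5 replicate 1 gave 17.3% and 12.8% for the higher probes, and 27.4% and 12.7% for the lower.

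One group of large rises consisted of probes that were bright in unwounded skin, far lower under film at day 3 and much higher again at day 5, though not bright on every array. Levels are log2 processed signal relative to the array's 75th percentile, taken over probes well above background, so a level of 0 is that of a bright probe. UF_Ocu_AF_103486 read -7.94, -6.95, -8.68, -5.60 and -5.03 at covered day 3 and 5.46, -1.48, -1.15, 1.29 and 1.48 at covered day 5 in replicates 1 to 5. The groups did not overlap, and replicate 1, whose spot was saturated, was the highest. The rise was 7.96 ± 1.38 log2 units (limma estimate and standard error, adjusted p = 0.000206, n = 5 and 5) and 6.88 ± 1.34 without replicate 1 (adjusted p = 0.000777, n = 5 and 4). Unwounded skin read 1.37 and 3.84, and wounds at day 0 ran from -9.21 to -1.28 with a median of -7.28.

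UF_Ocu_AF_106912 behaved alike and was not well above background on any covered day 3 array, where it read -7.42, -7.45, -7.67, -7.89 and -7.70. At covered day 5 it read 4.21, -4.04, -3.18, 0.84 and -1.19, so that the arrays of day 5 were widely spread while all lay above day 3. It was at least 72.2-fold higher at day 5 (limma adjusted p = 1.71e-05), where each dim array was held at the higher of its own signal and the lowest signal of any probe well above background. Without replicate 1 the rise was at least 31.0-fold. On the fitted scale it was 6.96 ± 0.98, and 5.74 ± 0.77 without replicate 1. Unwounded skin read -0.04 and 2.02. With dim arrays held in the same way, UF_Ocu_AF_103486 rose at least 151-fold, and at least 71.1-fold without replicate 1.

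Both probes of contig nag38c02.y1, which share no run of 8 or more bases, moved together. UF_Ocu_AF_107909 read -8.46, -8.93, -8.42, -7.87 and -7.54 at covered day 3, and -3.26, -2.75, -1.13 and -2.01 in replicates 2 to 5 at day 5. Its value in replicate 1 was dropped for outlier spots, so the fit rests on 4 arrays there. UF_Ocu_AF_107910 read -8.75, -9.14, -8.68, -7.71 and -6.50 at day 3 and 5.27, -2.40, -2.09, 0.49 and 0.18 at day 5, where replicate 1 was saturated and the highest. Neither was well above background on any covered day 3 array, and the rises were at least 23.5-fold and at least 139-fold (limma adjusted p = 5.45e-05 and 5.46e-05). Without replicate 1 the bound for UF_Ocu_AF_107910 was 58.6-fold, and its fitted rise went from 8.45 ± 1.31 to 7.20 ± 1.21 (adjusted p = 0.00015). Over all 30 arrays UF_Ocu_AF_103486 and UF_Ocu_AF_107910 had levels that correlated with r = 0.99 and shared a longest run of 13 bases, and cross-reaction was not tested. A pair of less extreme probes followed the same course. UF_Ocu_AF_106134 read -5.11, -4.53, -5.69, -3.80 and -3.28 at covered day 3 and 0.08, -0.37, -0.34, 0.53 and 0.87 at day 5, next to 1.11 and 0.77 in unwounded skin. UF_Ocu_UN_119974 rose by 4.50 ± 0.88 (limma adjusted p = 0.000806) to 4.24, with 3.57 in unwounded skin and -0.44 at day 0. This course was not particular to film. In uncovered wounds UF_Ocu_AF_103486, UF_Ocu_AF_106912, UF_Ocu_AF_107909 and UF_Ocu_AF_107910 rose by 7.00, 5.22, 5.55 and 6.66 log2 units. UF_Ocu_AF_106134 and UF_Ocu_UN_119974 rose there by 5.21 and 5.69. No difference between covered and uncovered changes was called for them (limma adjusted p from 0.661 to 0.924).

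A second group rose past unwounded skin. UF_Ocu_AF_108414 read -5.03, -4.03, -5.60, -4.76 and -4.17 at covered day 3 and 0.90, 1.80, 1.86 and 2.08 in replicates 2 to 5 at day 5, where replicate 1 was dropped for outlier spots. Both days were tight and far apart, and the rise was 6.38 ± 0.79 (limma adjusted p = 3.57e-06, n = 5 and 4). Unwounded skin read -1.58 and -2.80, below every covered day 5 array. UF_Ocu_AF_108052 read -0.99, -0.44, -2.10, -1.05 and 1.16 at covered day 3 and 4.99, 3.87, 3.68, 4.23 and 4.03 at day 5, against 1.69 and 2.40 in unwounded skin. It rose by 4.84 ± 0.67 (limma adjusted p = 1.44e-05) and by 4.63 ± 0.72 without replicate 1, which was saturated and the highest of its group. In uncovered wounds UF_Ocu_AF_108414 and UF_Ocu_AF_108052 rose by 7.85 and 5.82, and neither difference from the covered change was called (limma adjusted p = 0.622 and 0.726).

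UF_Ocu_AF_113422 and UF_Ocu_AF_113499, from different clones, ran in near parallel (r = 1.00 over 30 arrays, rounded, with no shared run of 8 or more bases). UF_Ocu_AF_113422 read -7.12, -8.28, -8.78, -7.68 and -4.23 at covered day 3 and -4.32 in replicate 1 and -1.57 to -0.86 in replicates 2 to 5 at day 5, so replicate 5 of day 3 and replicate 1 of day 5 met. UF_Ocu_AF_113499 read -6.81, -8.05, -8.54, -7.31 and -4.48 at day 3 and -3.53, -1.80, -1.79, -1.24 and -1.17 at day 5, and its groups did not overlap. Each was well above background on only 1 of 5 covered day 3 arrays. The fitted rises were 5.43 ± 0.94 and 5.13 ± 0.81 (limma adjusted p = 0.000199 and 6.41e-05), and 6.07 and 5.54 without replicate 1. With dim arrays held as above, the rises were at least 24.0-fold and 21.7-fold, and at least 37.3-fold and 28.8-fold without replicate 1. Here replicate 1 was the lowest of its group, the reverse of its place for UF_Ocu_AF_103486 and UF_Ocu_AF_106912. In uncovered wounds UF_Ocu_AF_113422 and UF_Ocu_AF_113499 rose by 8.46 and 7.85, and neither difference from the covered change was called (limma adjusted p = 0.323 and 0.299).

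A further group was at background in unwounded skin and at day 0, at background on nearly all covered day 3 arrays, and well above it on every covered day 5 array. UF_Ocu_AF_111885 read -8.58, -7.42, -8.29, -7.17 and -8.55 at covered day 3 and -5.92, -3.03, -0.99, -3.27 and -2.65 at day 5. All 5 arrays of day 5 were well above background and none of day 3. The rise was at least 11.8-fold (limma adjusted p = 1.24e-05) and at least 19.0-fold without replicate 1, and on the fitted scale 4.83 ± 0.67, or 5.52 ± 0.59 without replicate 1, the lowest of its group. UF_Ocu_AF_107087, from another contig, read -8.54, -8.10, -8.57, -7.43 and -8.64 and then -6.47, -3.60, -1.74, -3.99 and -3.23, a rise of at least 7.90-fold (limma adjusted p = 4.09e-05), which was not called with normexp background correction (adjusted p = 0.0586). Without replicate 1 it was at least 12.5-fold. UF_Ocu_AF_109798, well above background on 1 covered day 3 array (replicate 4), read -7.84, -7.34, -7.92, -6.77 and -8.67 and then -6.20, -2.89, -1.75, -3.28 and -3.01. Its fitted rise was 4.28 ± 0.78 (limma adjusted p = 0.000396), or 4.98 ± 0.74 without replicate 1. With dim arrays held as above, the rise was at least 9.38-fold, and at least 15.2-fold without replicate 1. The other probe of the contig of UF_Ocu_AF_109798, UF_Ocu_AF_109799, was well above background on every array. Its means were -4.20 in unwounded skin, -4.42 at day 0 and -3.88 at covered day 3, so the late appearance concerns 1 of the probes of that contig. UF_Ocu_AF_111885, UF_Ocu_AF_107087 and UF_Ocu_AF_109798 correlated pairwise over 30 arrays with r from 0.98 to 1.00 (rounded) and shared no run over 8 bases. In uncovered wounds these 3 probes were already detected at day 3: UF_Ocu_AF_111885 was well above background on 6 of 6 arrays there, UF_Ocu_AF_107087 on 4 and UF_Ocu_AF_109798 on 5, with means of -4.08, -4.68 and -4.37. The difference between the covered and the uncovered course was not called for any of them (2.30 ± 0.90, 2.09 ± 0.91 and 2.28 ± 1.06 log2 units, limma adjusted p = 0.289, 0.346 and 0.388).

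**Figure D3:**
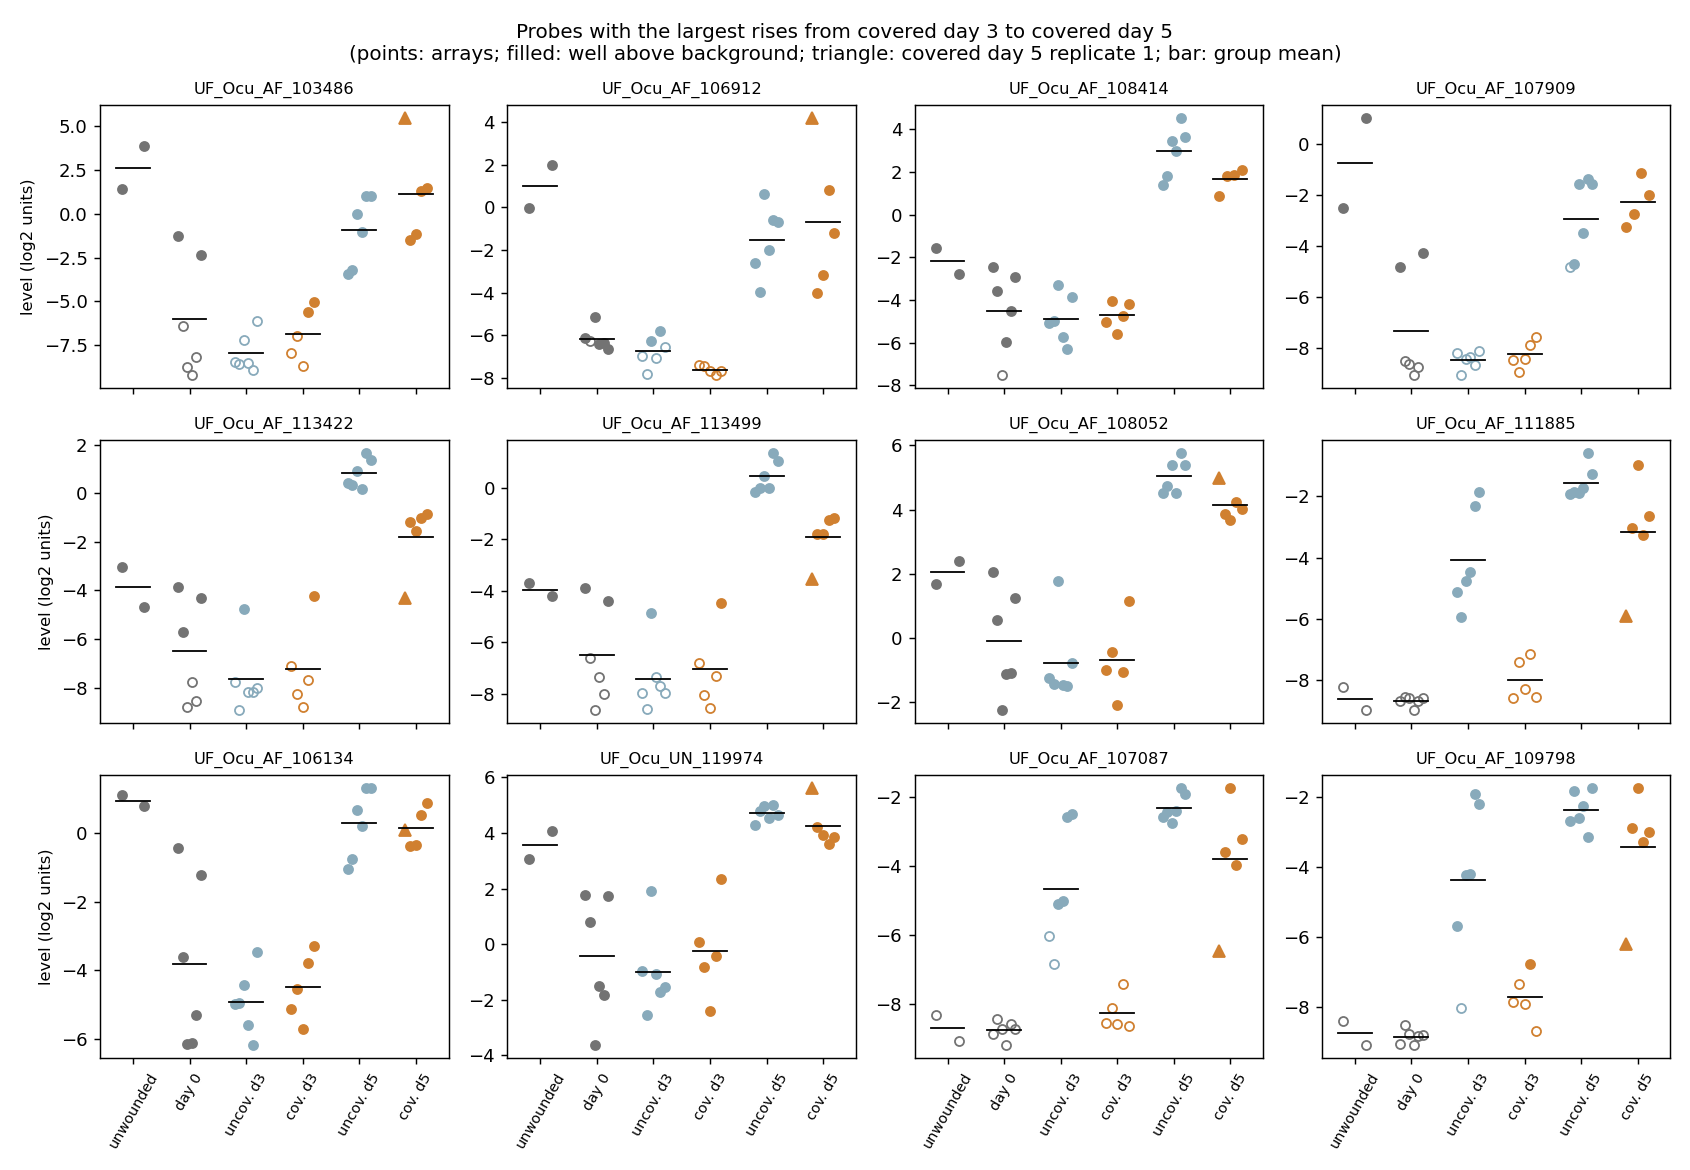
Levels of the 12 probes with the largest rises (log2 units relative to each array's 75th percentile, vertical axes that differ between panels) on every array of the 6 groups; filled points are well above background, bars are group means, and the triangle is covered day 5 replicate 1 where it was measured. UF_Ocu_AF_103486 read 1.37 and 3.84 in unwounded skin, was well above background on 2 of 5 covered arrays at day 3 and on all 5 at day 5, while UF_Ocu_AF_111885 was not well above background on any covered array at day 3.

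Gains of detection were few. Over all 23369 probes, 12 were well above background on none of the covered day 3 arrays and on all 5 at day 5, and 1 made the opposite switch. Without replicate 1 these counts were 22 and 28, and in uncovered wounds 79 and 12. The 12 gained probes included both probes of contig nag38c02.y1, UF_Ocu_AF_106912, UF_Ocu_AF_111885 and UF_Ocu_AF_107087, each described above. UF_Ocu_UN_118571 had the pattern of this group, with 0 of 8 unwounded and day 0 arrays and 4 of 6 uncovered day 3 arrays well above background, and rose by 4.16 log2 units under film (limma adjusted p = 0.000258). UF_Ocu_AF_109532 rose by 3.51 (adjusted p = 4.72e-08) with mean levels of -8.49 at covered day 3 and -4.99 at covered day 5, and means of -8.53 and -5.14 in uncovered wounds at the same days.

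The 3 probes with the largest fitted falls were at background in unwounded skin, well above it on 4 of 6 arrays at day 0 and on all arrays at covered day 3, and at background on all but 1 array at covered day 5. Fitted falls to background depend on the background level, so their order is not a ranking of the true change. UF_Ocu_AF_101376 read -3.07, -1.96, -3.39, -3.91 and -4.95 at covered day 3 and -10.52, -5.62, -7.98, -8.12 and -8.97 at day 5. Only replicate 2 of day 5 was still well above background, and the groups did not overlap. The fall was -4.79 ± 0.94 (limma adjusted p = 0.00085) and -4.22 ± 0.96 without replicate 1 (adjusted p = 0.00304). Unwounded skin read -8.41 and -9.21. In uncovered wounds the 3 probes, UF_Ocu_AF_101376, UF_Ocu_AF_111919 and UF_Ocu_UN_118574, changed by -4.31, -4.55 and -4.38 log2 units, all called. No difference from the covered change was called for them (limma adjusted p from 0.915 to 0.955). Over all 30 arrays their levels ran opposite to those of the rising probe UF_Ocu_AF_103486 (r = -0.87, -0.88 and -0.92).

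Both probes of contig naf07a03.x1 fell. UF_Ocu_AF_111919 read -3.26, -2.23, -3.60, -3.16 and -3.66 at covered day 3 and -10.40, -4.91, -7.27, -8.27 and -8.91 at day 5, a change of -4.77 ± 0.76 (limma adjusted p = 7.66e-05), or -4.15 ± 0.74 without replicate 1. UF_Ocu_AF_111918, which was well above background in every group, read 0.33, 1.43, 0.08, 0.67 and 0.36 at day 3 and 0.61, -0.12, -4.24 and -3.97 in replicates 2 to 5 at day 5, with replicate 1 dropped. Its groups overlapped through replicate 2, and the change was -2.50 ± 0.79 (adjusted p = 0.0264). UF_Ocu_UN_118574 changed by -4.69 ± 1.05 (limma adjusted p = 0.00275), from -3.25 to -7.94, and the probe to the opposite strand of its clone, UF_Ocu_UN_115265, was at background on all 5 covered day 3 arrays and was not called (1.24 ± 0.71, adjusted p = 0.202). Without replicate 1 it was called higher (1.86 ± 0.67, adjusted p = 0.0411), with 1 covered day 5 array well above background.

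Other probes fell less evenly, with replicates 2 and 3 of covered day 5 close to day 3 and replicates 4 and 5 far below it. UF_Ocu_AF_102130 read -2.27, -1.58, -2.21, -2.59 and -3.29 at covered day 3 and -9.16, -2.80, -3.94, -6.55 and -7.55 at day 5. UF_Ocu_AF_100831 read 3.92, 3.76, 4.00, 3.28 and 2.77 at day 3 and 2.10, 1.36, -0.95 and -1.41 in replicates 2 to 5 at day 5, with replicate 1 dropped. UF_Ocu_AF_102130 was at background in unwounded skin, whereas UF_Ocu_AF_100831 was well above background on every array of unwounded skin and of covered day 5. The changes were -3.62 ± 0.89 (-2.83 ± 0.83 without replicate 1) and -3.27 ± 0.89 (limma adjusted p = 0.0059 and 0.0119), and the second was no longer called without covered day 5 replicate 5 (-2.71). The other probe of the contig of UF_Ocu_AF_100831, UF_Ocu_AF_100832, was bright throughout and was not called (0.18 ± 0.20, adjusted p = 0.542), so the fall concerns 1 of the probes of that contig. UF_Ocu_UN_120397 changed by -3.53 ± 0.88, UF_Ocu_UN_123329 by -2.49 ± 0.86 and UF_Ocu_UN_117974 by -2.43 ± 0.64 (limma adjusted p = 0.00706, 0.0394 and 0.00894), and each had overlapping groups. UF_Ocu_UN_120397 and UF_Ocu_UN_123329 were still well above background on 4 and 5 covered day 5 arrays, and UF_Ocu_UN_117974 on 2. With normexp UF_Ocu_UN_123329 and UF_Ocu_UN_117974 were not called (adjusted p = 0.0798 and 0.0852). UF_Ocu_UN_123329 lost its call without covered day 5 replicate 4 (-1.63) or 5 (-1.88), or without covered day 3 replicate 1, 2, 3 or 4. In uncovered wounds UF_Ocu_AF_102130, UF_Ocu_AF_100831, UF_Ocu_UN_120397, UF_Ocu_UN_123329 and UF_Ocu_UN_117974 changed by -2.85, -2.69, -3.27, -2.50 and -2.71, all called. No difference from the covered change was called for them (limma adjusted p from 0.845 to 0.999).

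A different kind of fall concerned probes that were detected in unwounded skin, at background at day 0, detected at covered day 3 and lower or at background at day 5. UF_Ocu_AF_106667 was well above background on both unwounded arrays (-4.60 and -5.89) and on none of 6 at day 0. At covered day 3 it read -5.44, -5.19, -4.76, -6.62 and -6.03, all well above background, and at day 5 -9.19, -8.30, -7.38, -8.16 and -8.65, none of them so. It was the 1 probe of the array that went from detection on all covered day 3 arrays to none at day 5, at least 2.08-fold lower at day 5 (limma adjusted p = 0.000305), and -2.73 ± 0.49 on the fitted scale. The second probe of its contig, UF_Ocu_AF_106666, fell by 2.42 log2 units (adjusted p = 0.00109). Neither fall was called with normexp background correction (adjusted p = 0.155 and 0.217). Both probes of contig R4.sd.189.C1 had a less complete course. UF_Ocu_AF_109830 read -3.90, -4.97, -5.66, -3.06 and -2.42 at covered day 3 and -7.48, -6.82, -3.97, -7.26 and -7.38 at day 5, where replicate 3 remained high. It changed by -2.58 ± 0.74 (limma adjusted p = 0.0149, and 0.104 with normexp). It was still well above background on 2 of 5 covered day 5 arrays, and on 5 of 6 uncovered arrays at day 3 and 3 of 6 at day 5. UF_Ocu_AF_109831 changed by -2.67 ± 0.82 (adjusted p = 0.0218), and with normexp by -1.64 (adjusted p = 0.184). It was well above background on 1 of 2 unwounded, 4 of 5 covered day 3 and 1 of 5 covered day 5 arrays. In uncovered wounds UF_Ocu_AF_106667 and UF_Ocu_AF_109830 changed by -0.65 and -0.40 and were not called. Neither difference from the covered change was called (limma adjusted p = 0.178 and 0.376).

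UF_Ocu_AF_108658 was bright in unwounded skin (4.73 and 4.98), lower at day 0 (median 0.96) and bright again at covered day 3 with 4.74, 4.75, 5.04, 5.01 and 4.67. At covered day 5 it read 1.42, 4.92, 2.23, 2.08 and 1.78, so that 4 of 5 arrays were far below day 3 and replicate 2 was not. The change was -2.35 ± 0.59 (limma adjusted p = 0.00689), while the other probe of its contig, UF_Ocu_AF_108659, changed by -0.09 ± 0.25 (adjusted p = 0.837). UF_Ocu_UN_119771 fell from a mean of -2.39 to -5.23 (-2.83 ± 0.77, adjusted p = 0.0113), and its call was lost without the covered arrays of slide 3 (-2.45). In uncovered wounds UF_Ocu_AF_108658 and UF_Ocu_UN_119771 changed by -2.17 and -2.50, both called. Neither difference from the covered change was called (limma adjusted p = 0.949 and 0.930).

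**Figure D4:**
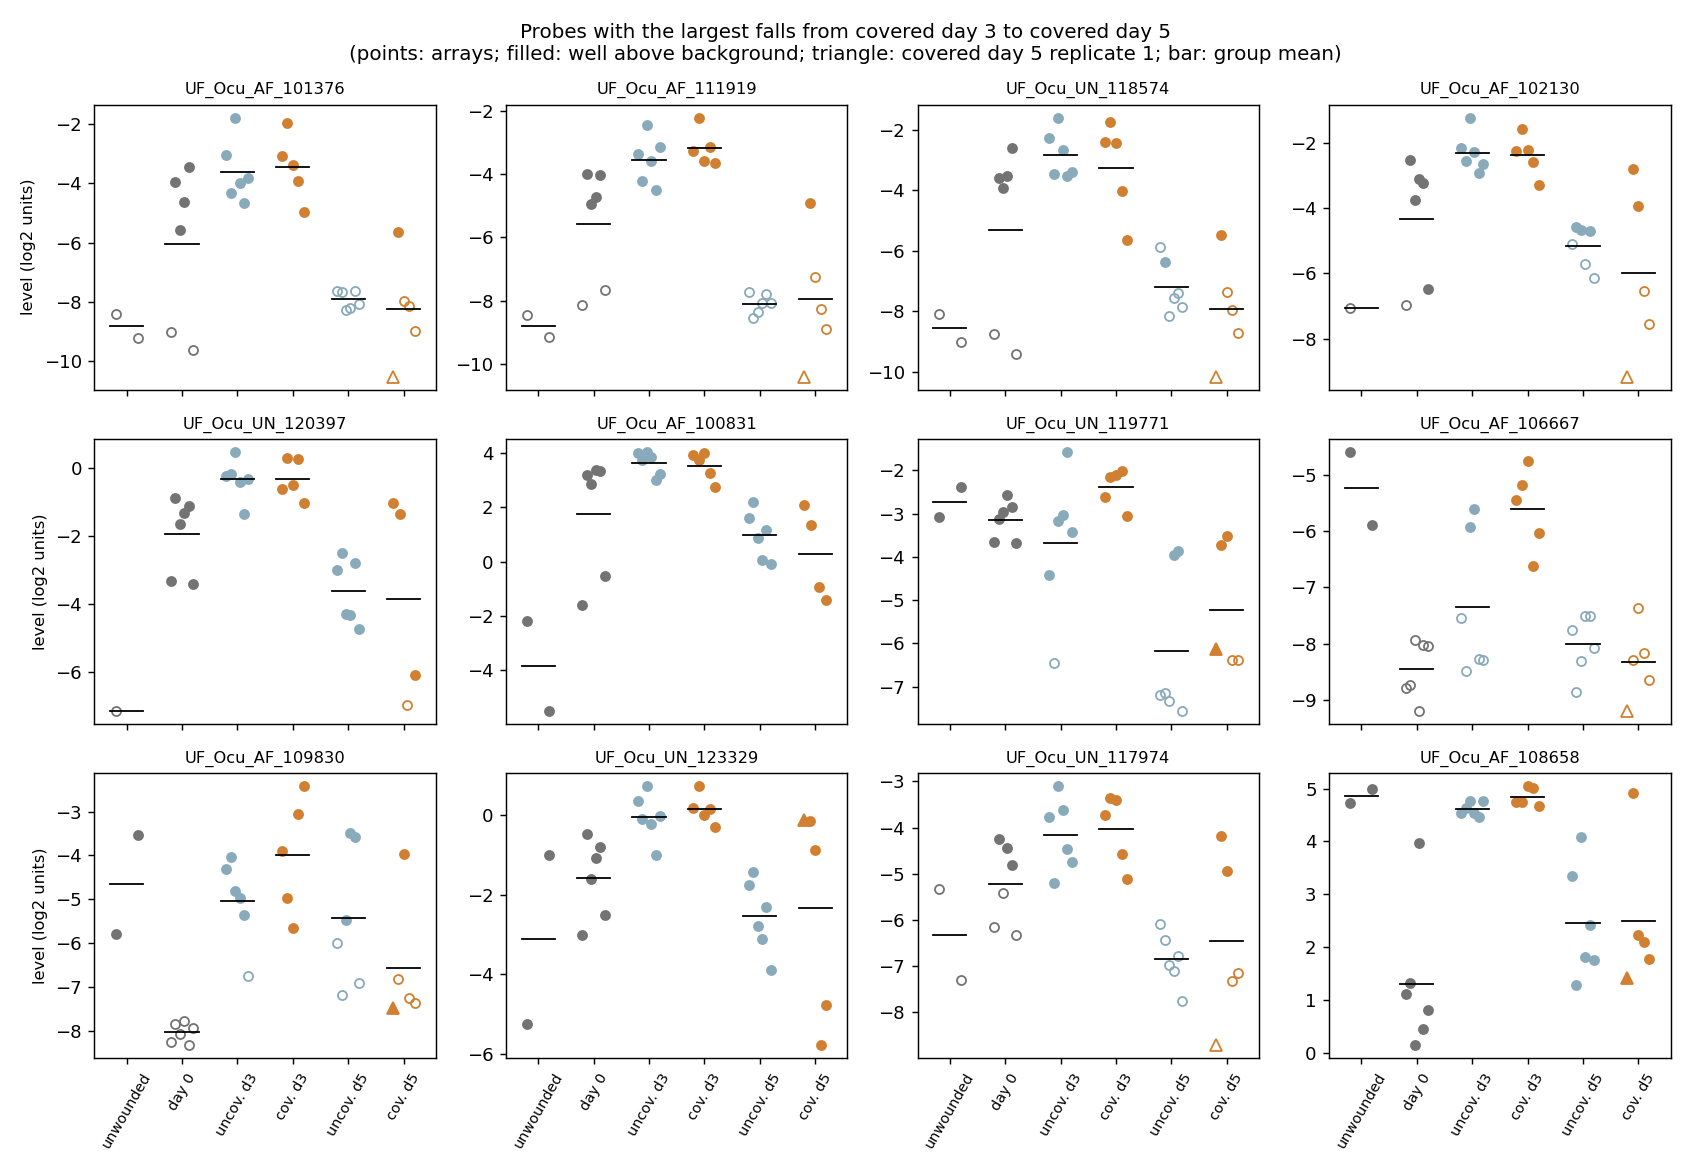
Levels of the 12 probes with the largest falls (log2 units relative to each array's 75th percentile, vertical axes that differ between panels) on every array of the 6 groups, with symbols as for the rising probes. UF_Ocu_AF_101376 went from -1.96 to -4.95 at covered day 3 to background on 4 of 5 arrays at day 5, while UF_Ocu_AF_108658 kept 1 day 5 array at 4.92.

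Probes of the same contig mostly changed together. In 4228 contigs with 2 tested probes, 3905 of which had probes that shared no run of 8 bases, the changes of the 2 probes correlated across contigs with r = 0.82. The partner of a probe called higher changed in the same direction in 96.3% of 1313 pairs and was itself called higher in 62.3%, against 15.1% of all tested probes. The partner of a probe called lower changed in the same direction in 97.3% of 750 pairs and was called lower in 64.3%, against 7.19%. Partners share the arrays and the base composition of their transcript. Among the largest rises and falls, UF_Ocu_AF_109798 (partner UF_Ocu_AF_109799, 0.26 ± 0.39), UF_Ocu_AF_100831 and UF_Ocu_AF_108658 were the ones whose partner changed by under 0.3 log2 units. The partner of UF_Ocu_AF_106134, UF_Ocu_AF_106133, changed by 1.22 ± 0.56 and was not called (limma adjusted p = 0.11). It was saturated on 3 of the 10 covered arrays. Of 278 contigs with probes to both strands and at least 1 called, 9 had both strands called, 79 had the other strand tested and not called, and in 190 the other strand did not pass the filter on dim probes.

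The same interval in uncovered wounds, measured on arrays that the covered comparison did not use but in the same fit, had the same direction for most of these probes. In uncovered wounds 5531 probes (44.8%) were called, 3504 higher (28.4%) and 2027 lower (16.4%). Of the 1860 probes higher under film, 1439 (77.4%) were also higher without it and 5 were lower, and these 1439 made up 41.1% of the uncovered list. Of the 887 lower probes 626 (70.6%) were also lower and 3 higher, 30.9% of the uncovered list. Across all 12342 probes the changes correlated with r = 0.78, and with 0.82 without covered day 5 replicate 1, a description over probes that share arrays and base composition.

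The test of the difference between the covered and the uncovered change called 15 probes (0.122%), 13 of them with a more negative change under film. All 15 were also called without covered day 5 replicate 1, when 24 were called. At an unadjusted p under 0.05 there were 1502, and the count of calls ran from 0 with normexp background correction (661 at an unadjusted p under 0.05) to 296 with array weights. The largest differences were those of both probes of contig nag05d08.y1. UF_Ocu_AF_111876 was well above background in unwounded skin (-4.26 and -4.90), on none of 6 arrays at day 0 and on no uncovered array at day 3 or day 5. Under film it read -5.25, -5.90, -5.00, -5.64 and -4.66 at day 3, all well above background, and -7.28, -7.90, -6.37, -8.24 and -8.19 at day 5, only replicate 1 of them so. The covered change was -2.31 ± 0.38, the uncovered change 0.71 ± 0.34, and the difference -3.02 ± 0.51 (limma adjusted p = 0.00836). The other probe, UF_Ocu_AF_111877, had a difference of -3.21 ± 0.55 (adjusted p = 0.00836). With normexp the difference of UF_Ocu_AF_111876 was -1.72 and not called, nor was its covered change (-1.39, adjusted p = 0.207). The probe was well above background under film at day 3 and on no uncovered array at that time.

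Other probes rose in both arms and by less under film. UF_Ocu_UN_119233 read -3.52, -3.53, -3.68, -4.20 and -3.08 at covered day 3 and -0.32, -0.78, -0.01 and 0.17 in replicates 2 to 5 at covered day 5, with replicate 1 dropped. Uncovered wounds at day 5 ran from 1.36 to 2.84 with a median of 1.85, above every covered array. It rose by 3.37 ± 0.30 under film and by 5.45 ± 0.26 without it (difference -2.08 ± 0.40, limma adjusted p = 0.0287). UF_Ocu_UN_121753 rose by 1.79 ± 0.43 (2.38 ± 0.30 without replicate 1) and by 4.59 ± 0.39 (difference -2.80 ± 0.58, adjusted p = 0.0421), and UF_Ocu_AM_114927 by 2.24 ± 0.40 and 4.91 ± 0.36 (difference -2.67 ± 0.54, adjusted p = 0.0358). UF_Ocu_AM_114927 was well above background on none of the covered day 3 arrays and on 3 of 5 at day 5, and with normexp its covered change was 0.68 and not called (adjusted p = 0.671). The other probes of its contig, UF_Ocu_AF_106768 and UF_Ocu_AF_106769, changed by -0.49 ± 0.19 and -1.74 ± 0.71 under film (limma adjusted p = 0.0629 and 0.0749). Their differences between arms were not called (limma adjusted p = 0.558 and 0.691). Nor was that of UF_Ocu_UN_119928, the other probe of the clone of UF_Ocu_UN_121753 (-0.33 ± 0.39, limma adjusted p = 0.784). In the opposite direction, UF_Ocu_AF_112137 had means of -0.52 at both covered days (change -0.00 ± 0.11, adjusted p = 0.995) and fell by 0.78 ± 0.10 in uncovered wounds, a difference of 0.78 ± 0.15 (adjusted p = 0.0277), which was not called after centring by base composition (0.66, adjusted p = 0.0647). The second probe of its contig, UF_Ocu_AF_112138, had a difference of 0.68 ± 0.19 in the same direction, which was not called (limma adjusted p = 0.124). The other probe called with a more positive change under film, UF_Ocu_AF_101379, was chosen after its values were seen. Its changes were 0.92 under film and -1.15 without it, a difference of 2.07 ± 0.30 (limma adjusted p = 0.00321). It was well above background on 2 uncovered day 3 arrays, 1 covered day 5 array and no other array of these 4 groups. The calls of the differences of UF_Ocu_UN_119233, UF_Ocu_UN_121753, UF_Ocu_AM_114927 and UF_Ocu_AF_112137 were each lost under 17 or 18 of 44 to 46 alternative settings, among them the replicate block and several single arrays left out, whereas their direction held in all of them.

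**Figure D5:**
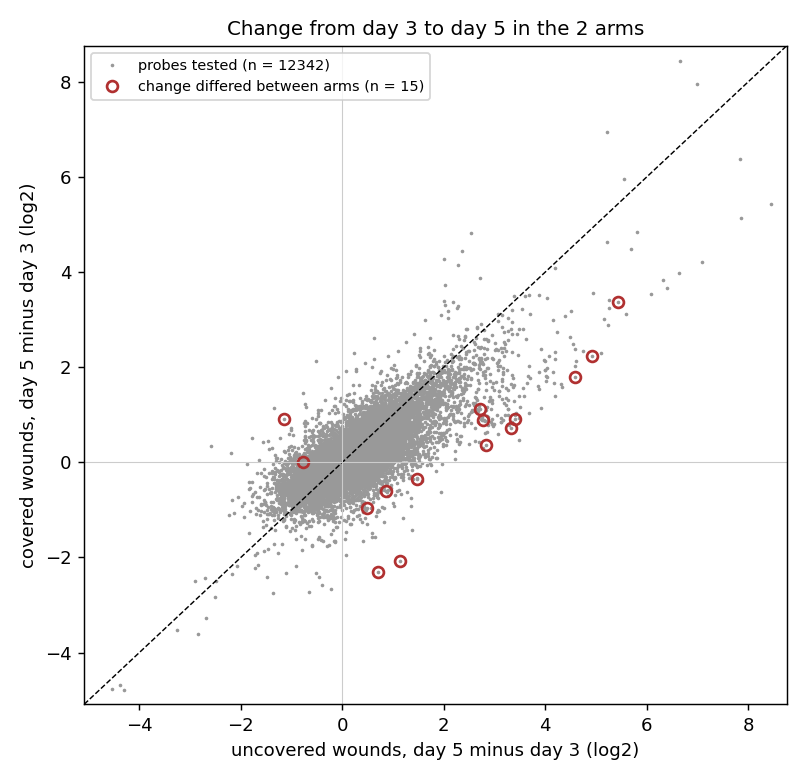
Change from day 3 to day 5 under film (vertical axis, log2) against the change in uncovered wounds (horizontal axis, log2) for 12342 tested probes (grey), with equality as the dashed line; red circles mark the 15 probes whose changes differed between the arms. The changes correlated with r = 0.78 across probes, and 13 of the 15 circled probes lay below the line of equality.

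For each probe, 1 covered array of a day is always nearest to the other day, and a few arrays held that place for most probes. Among the 211 probes that rose at least 4-fold, the covered day 3 array nearest to day 5 was replicate 4 for 100 probes and replicate 5 for 88, and replicates 1, 2 and 3 for 13, 7 and 3. Replicates 4 and 5 lay on slides 3 and 4. Replicate 4 had 50.4% of probes well above background, against 41.5% to 44.4% on the other covered day 3 arrays. Among the covered day 5 arrays, replicate 1 was nearest to day 3 for 88 probes and replicate 2 for 74. For the 22 probes that fell at least 4-fold, replicate 5 of day 3 was the lowest for 11, and replicate 2 of day 5 was the highest for 12 and replicate 3 for 8. Day 0 showed such a division on arrays outside the covered groups, though in the same fit: replicate 1 was the highest of the 6 arrays for 102 of the 211 rising probes and replicate 6 for 81. These are descriptions, since the covered values chose the lists, and the slide and the sample cannot be told apart here.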

How the data were processed

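Each sample was hybridised to a 1-colour Agilent array and read with Feature Extraction 10.1.1.1, per the file headers. The deposited processed signal is a spot intensity, background-subtracted and detrended within the array, per the file headers. No step between arrays is recorded there. The headers' tables also hold spot flags (a deposited value of 0 or 1). The submitters' processing notes name limma. The authors' deposited value table holds linear intensity values with array medians from 288 to 293, which correlated on the log2 scale with the processed signal at r from 0.95 to 0.98. How it was background-corrected and normalized is not given in the sources used here. It served as an alternative.

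Spots flagged as outliers were left out (462 array values of tested probes), the 1 or 2 spots of a probe were averaged, and each array's 75th percentile, taken over 7446 probes that exceeded background on every array, was subtracted on the log2 scale. Probes that exceeded background on 2 or more arrays (12342) were fitted with limma 3.58.1 in R 4.3.3 (lmFit and eBayes, 6 groups, all 30 arrays, no block, 2-sided, Benjamini-Hochberg adjustment within each comparison), and called at an adjusted p under 0.05. Errors after ± are standard errors of the fit unless marked SD. The script was tested on simulated data. The number of arrays limits the precision.

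Described probes were the 12 higher and 12 lower with the largest change, 1 per contig, called with and without covered day 5 replicate 1 and well above background on all arrays of the brighter group, and, under the same detection rule, up to 4 probes in each direction that differed most between covered and uncovered wounds. Other probes of a contig are given beside them, and probes that switched detection were chosen after their values were seen. The probes, lists and alternatives were chosen with earlier results of these data known. Gene lists and cell type markers could not be used without a map from probes to genes. Alternatives were other scalings, normexp background correction with an offset of 50, the authors' values, other filters, slide, scan day and replicate number as blocks, array weights and each array left out. Those added after seeing the data were left-out slides, scan day 2 alone, centring by base composition, and pairs of settings.

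Replicate numbers showed no clear pairing of the covered samples: the deviations of same-numbered covered arrays correlated with r of -0.41, 0.29, 0.11, -0.10 and 0.09. For replicate 2 this exceeded the highest r with another number (0.13), and so few values cannot exclude pairing.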

Additional observations from a re-analysis of the deposited data

Results flagged for a closer look

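Among 60 groups of arrays checked for the described probes, 5 held 1 array far from the rest, and chance gives about 1 in 20. For UF_Ocu_AF_113422 covered day 5 replicate 1 lay at -4.32, with the other arrays between -1.57 and -0.86. For UF_Ocu_AF_113499 the same array lay at -3.53, with the others between -1.80 and -1.17, and for UF_Ocu_UN_121753 at -4.23, with the others between -1.68 and -0.77. Covered day 5 replicate 3 lay at -3.97 for UF_Ocu_AF_109830, with the others between -7.48 and -6.82. Covered day 5 replicate 2 lay at 4.92 for UF_Ocu_AF_108658, with the others between 1.42 and 2.23.

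The change from day 3 to day 5 differed between covered and uncovered wounds in the limma test of the difference for UF_Ocu_AF_112137 (0.78), UF_Ocu_AF_111876 (-3.02), UF_Ocu_UN_121753 (-2.80), UF_Ocu_AM_114927 (-2.67) and UF_Ocu_UN_119233 (-2.08), as covered minus uncovered on the log2 scale.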

How the results depend on the processing

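Of 1050 values of described probes under the alternatives, none reversed, 950 kept their call and 100 lost it. The counts moved more, and the cause was not tested. Each count comes from its own fit and need not hold the same probes. The count of called probes (2747) was 688 with normexp (690 also without covered day 5 replicate 1), 1339 without the covered arrays of slide 9, 6779 with array weights, and 1799 to 3335 with 1 array left out. The count fell to 1819, 1799 and 1799 without covered day 3 replicates 1, 2 and 3. Probes called higher (1860) numbered 417 with normexp (428 without that array), 4509 with array weights, 1038 without slide 9, 1086 after centring by base composition (993 without that array, 1153 with the replicate block), and 1256 to 2271 with 1 array left out. Probes called lower (887) numbered 1369 with quantile normalization, 271 with normexp, 1599 with the authors' values, 468 with no filter, 2270 with array weights, 533 without slide 3, 301 without slide 9, and 525 to 1064 with 1 array left out. Without covered day 5 replicate 1 they numbered 1848 (all-probe percentile), 1794 (quantile), 262 (normexp) and 1922 (authors' values). Rises of at least 2-fold (1068) numbered 694 (quantile), 241 (normexp), 300 (authors' values), 499 (detected on all 10 covered arrays), 1973 (array weights), 651 (base composition), 692 (with slide) and 663 (with replicate block). Without that array they numbered 688, 250, 303 and 647 for quantile, normexp, authors' values and base composition, and 774 to 1266 with 1 array left out. Falls of at least 2-fold (149) numbered 306 (all-probe percentile), 387, 47, 95, 91 and 276 in the same order of settings up to array weights, and 87 without slide 9. Without that array they numbered 461, 577 and 42 (all-probe, quantile, normexp), and 107 to 188 with 1 array left out.

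Probes that differed between covered and uncovered wounds (15) numbered 25 (all-probe percentile), 100 (quantile), 0 (limma after normexp, with 661 at an unadjusted p under 0.05), 197 (authors' values), 8 (no filter), 5 (detected on all 10 covered arrays) and 9 (on all arrays of 1 covered group). They numbered 36 and 109 with slide as a fixed and a random block, 60 with scan day, 8 with the replicate block, 296 with array weights, 50 without slide 6, 8 on scan day 2 alone and 6 without slide 9. Without covered day 5 replicate 1 they numbered 24, and 26, 61, 1 and 142 in the order of scalings above. Centring by base composition gave 41, with 31 without that array, 91 with slide and 29 with the replicate block, and leaving out 1 array gave 5 to 41. Uncovered calls (5531) numbered 2295 with normexp (2484 without that array), and 4252 to 6008 with 1 array left out. The difference in the share of probes well above background turned to -0.785 percentage points without that array.

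Replicate numbers showed no clear pairing of covered day 3 with covered day 5 arrays, and pairing of covered with uncovered arrays was not checked. With the replicate block 2931 probes were called, 1951 higher and 980 lower. Low signal limits the dim probes, for which a fold is only a bound, and 5 arrays a group limit the rest.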
